A study of Danio rerio with 36 samples.

Results

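The gene *gfap* (ENSDARG00000025301) was followed through the developing zebrafish eye as 1 of 31540 genes in a table of 36 columns. It was chosen because it is the gene whose regulatory sequence gave the sorting reporter its name, and not for its values. It is also a gene that the study drew among glial genes, so its choice was not independent of these data. RNA was sequenced from Tg(*GFAP:GFP*) embryos and larvae kept in PTU, a compound that blocks pigment. Whole eyes were dissected and pooled, dissociated, and split by flow cytometry into GFP cells, the Müller glia fraction (MG), and all other cells, the non-GFP fraction (C), at 48, 60, 72, 96, 120, and 192 hours post fertilization (hpf), with 3 columns per fraction and stage. Both fractions came from the same transgenic line, so C was not tissue without the transgene, and it held every GFP-negative cell of a whole eye, lens and surface cells included. The reporter marks cells in which a *gfap* regulatory sequence was active, and GFP protein can outlast the transcript. No row for the GFP transcript was analysed here.

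GFAP is a type III intermediate filament protein and the classical marker of astrocytes. It assembles with vimentin and other filament proteins into the cytoskeleton of radial glia. In the fish retina, Müller glia carry *gfap* constitutively, whereas in the mammalian retina the protein is low in healthy Müller glia and is induced by injury. In mammals the gene is switched on late in glial development, under STAT3, SMAD, NFI, and Notch inputs.

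The columns outside 60 hpf MG held between 1311849 and 8889893 reads on genes, and those of 60 hpf MG between 63463 and 90846. Levels are in CPM, counts of a gene scaled to a column total of 1000000. Replicates 1 and 2 of each group differed by less than the sampling noise of their reads, by a chi-square ratio (1 for independent reads of 1 library) of 0.0686 to 0.952. Replicate 3 joined them outside 48 hpf. Joined only within a label, the columns count as 14 libraries. At 48 hpf the labels did not hold for replicate 3. The column labelled C replicate 3 differed from MG replicates 1 and 2 by ratios of only 0.679 and 0.991, and the column labelled MG replicate 3 differed from the 3 columns of 72 hpf MG by 0.862 to 0.946. By this measure both columns repeat other libraries, and 12 libraries remain without them. The limma fits below keep both columns under their labels unless stated. The 12 columns of 72 and 120 hpf stood apart in both fractions, with TMM scaling factors (a measure of library composition) of 0.552 to 0.746, against 0.955 to 1.91 in the 22 columns of the other stages without the 48 hpf replicates 3. Over 19046 genes, 72 hpf MG correlated with 120 hpf MG at r = 0.79 and with the 96 hpf MG in between at r = 0.70, while 96 and 192 hpf MG correlated at r = 0.96.

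*gfap* was a low transcript in every library but that of 60 hpf MG, where its level is unknown. In MG it stood at its highest at 96 and 192 hpf, and in C at 48 hpf. In the MG columns, replicates 1 to 3 in turn, *gfap* at 48 hpf had 4.57, 4.73, and 1.47 CPM. At 72 hpf it had 2.12, 2.22, and 2.59 CPM, at 96 hpf 17.2, 17.7, and 17.0 CPM, at 120 hpf 0.869, 0.722, and 0.598 CPM, and at 192 hpf 11.3, 10.4, and 8.90 CPM. In the C columns the values were 7.59, 5.34, and 2.49 CPM (48 hpf), 0, 0.148, and 0.295 CPM (60 hpf), 0.255, 0.255, and 0 CPM (72 hpf), 1.76, 1.90, and 0.676 CPM (96 hpf), 2.19, 1.90, and 3.40 CPM (120 hpf), and 0.182, 0.183, and 0.337 CPM (192 hpf). The MG and C columns did not overlap at 72, 96, 120, and 192 hpf, with MG above C at 72, 96, and 192 hpf and below C at 120 hpf. The columns of each of these groups sample 1 library, so this compares libraries, and its frequency among all genes was not counted. At 120 hpf it rests on 4 to 6 reads in MG against 6 to 10 in C, with a counting interval of the ratio (0.0753 to 1.04) that includes equal levels.

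These levels rest on few reads. Behind them were 42, 43, and 42 *gfap* reads in the 96 hpf MG columns, 48, 44, and 40 in those of 192 hpf MG, and 6, 5, and 4 in those of 120 hpf MG. In C no column held more than 14 *gfap* reads, and those of 60, 72, and 192 hpf held 2 at most. The 60 hpf MG columns held 0 reads each, which allows a level of up to 38.0 CPM (3 reads of the mean column), above every *gfap* level measured here. *gfap* was therefore not detectable at this depth in 60 hpf MG, and no comparison with that library is read below.

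**Figure D1:**
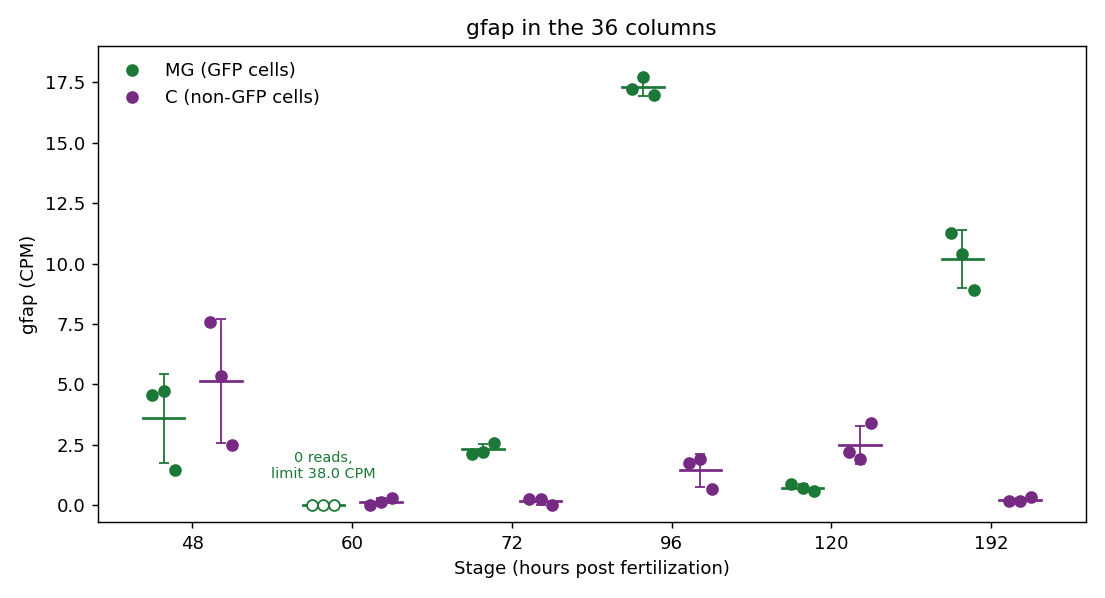
CPM of *gfap* in each of the 36 columns by stage (x axis, hours post fertilization, not to scale), MG in green and C in violet; bars are the mean and SD over the 3 columns, which sample 1 library outside 48 hpf. The 3 columns of 96 hpf MG sit at 17.0 to 17.7 CPM, those of 120 hpf MG at 0.598 to 0.869 CPM, and the open circles of 60 hpf MG mark 0 reads in libraries that would allow 38.0 CPM.

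The comparison of MG with C at each stage asks whether the sorted cells carried more of the transcript whose regulatory sequence marked them. *gfap* was higher in MG at 72, 96, and 192 hpf and not shown to differ at 48 hpf. The lower MG level at 120 hpf was called on the deposited scale but not under TMM or quantile scaling, and its counting interval includes equal levels. Both a ratio and a fit were used. The ratio is that of CPM in the joined libraries, with a 95% interval that covers counting error only. The fit is limma on all 36 columns, with p-values adjusted by Benjamini-Hochberg over 19046 genes. It estimates 1 spread per gene, shared by all groups and stages, so its SE is not the spread of the columns at a stage. The 48 hpf replicates 3 enter that spread, so a gene that did not pass is not shown to be equal. Since the 3 columns of a group were 1 library, limma compares libraries and not conditions.

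At 96 hpf the joined libraries had 17.3 CPM in MG (12.5 to 23.4) against 1.44 CPM in C (0.711 to 2.60), a ratio of 12.0 (6.03 to 26.1). limma gave a log2 difference of 3.67 ± 0.62 (SE, adjusted p = 3.26e-05). Few genes were enriched as much at this stage, where 6.59% of all genes tested were called higher in MG and 29.3% lower, and *gfap* held place 214 of 19046 by the MG over C ratio with values under 3 reads set to 3 reads.

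At 192 hpf the levels were 10.2 CPM in MG (7.39 to 13.6) against 0.237 CPM in C (0.0131 to 1.09), a ratio of 43.0 (8.83 to 794). The limma difference was 5.20 ± 0.62 (SE, adjusted p = 2.01e-07). *gfap* stood at place 40 of 19046 from the top, in a comparison with 6.12% of genes called higher in MG and 20.5% lower. The C columns held 1, 1, and 2 reads, which is why the upper end of the interval is wide.

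At 72 hpf *gfap* had 2.31 CPM in MG (1.42 to 3.56) against 0.170 CPM in C (0.000869 to 1.27), a ratio of 13.6 (1.63 to 2769), and the limma difference was 3.80 ± 0.62 (SE, adjusted p = 1.50e-05). The C columns held 1, 1, and 0 reads. Here 23.3% of genes were called higher in MG and 23.4% lower, so a call at this stage is common, and with the floor of 3 reads *gfap* was at place 2972 of 19046.

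At 120 hpf *gfap* had 0.731 CPM in MG (0.237 to 1.71) against 2.48 CPM in C (1.05 to 4.95), a ratio of 0.295 (0.0753 to 1.04), whose interval includes equal levels. limma called it lower in MG, with a difference of -1.68 ± 0.62 (SE, adjusted p = 0.0220), at a stage where 37.4% of genes were called lower and 20.0% higher. The call did not hold with TMM scaling (-1.25, adjusted p = 0.0671) or quantile normalization (-0.28, adjusted p = 0.693), nor without MG replicate 3 (-1.55, adjusted p = 0.0658) or without C replicate 3 (-1.44, adjusted p = 0.0848).

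At 48 hpf *gfap* had 4.65 CPM (3.27 to 6.43) in MG replicates 1 and 2 and 6.47 CPM (2.88 to 12.5) in C replicates 1 and 2, a ratio of 0.720 (0.335 to 1.74). The limma difference over the 6 columns was -0.54 ± 0.62 (SE, adjusted p = 0.553), and it was -0.45 ± 0.69 (SE, adjusted p = 0.730) without both columns of replicate 3. Called higher in MG were 4.36% of all genes, and 9.61% lower. MG replicate 3 had 1.47 CPM (0.784 to 2.52) and C replicate 3 had 2.49 CPM (0.678 to 6.37). A difference between the fractions was not detectable at this depth, with an interval that allows ratios of 0.335 to 1.74.

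At 60 hpf limma returned -1.58 ± 0.62 (SE, adjusted p = 0.0230) from 0 reads in every MG column against 0.148 CPM in C (0.00374 to 0.824). Both levels are under the 3-read floor of the MG library, so no ratio is given. At that depth 70.7% of genes were called lower in MG and 6.17% higher.

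**Figure D2:**
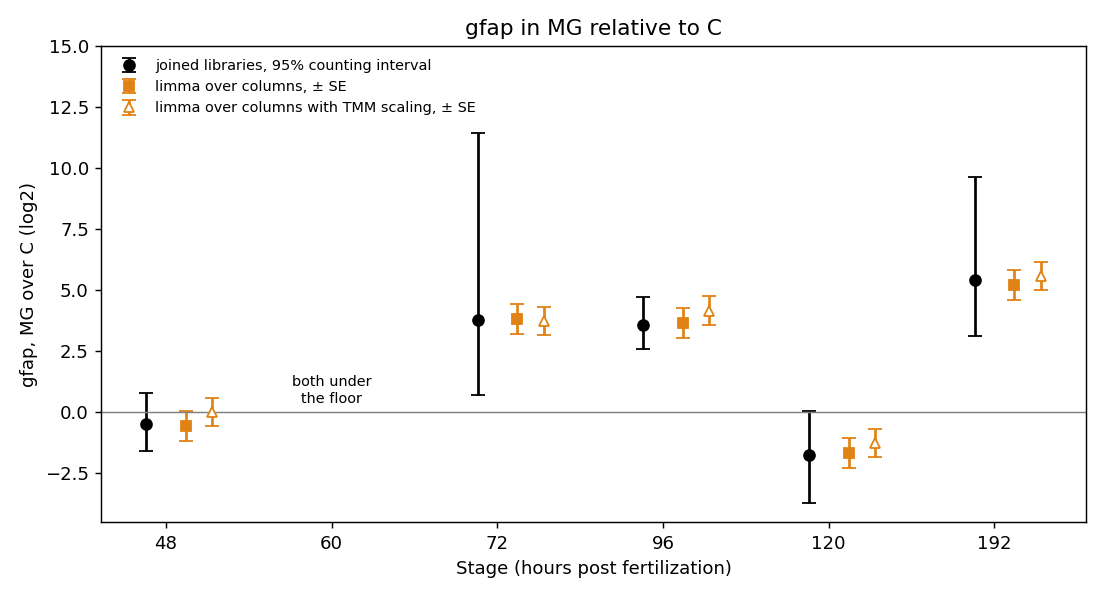
MG over C of *gfap* by stage (x axis, hours post fertilization, not to scale) on the log2 scale; black circles are joined libraries with their 95% counting interval, orange squares are limma over columns with the SE, and open triangles are limma with TMM scaling. The values lie above 0 at 72, 96, and 192 hpf under all 3 measures, near 0 at 48 hpf, and below 0 at 120 hpf. At 120 hpf the counting interval includes 0, the line of equal levels.

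Whether the difference between the fractions varied with stage was tested over columns, which compares libraries. The limma F-test of MG minus C across the 6 stages gave F = 24.9 (adjusted p = 1.33e-08), in a test that called 85.3% of all genes, and no condition had a replicate library behind it. Over the 6 stages taken as pairs of joined libraries, the mean log2 difference was 1.23, with 3 stages higher in MG and 2 lower (exact two-sided sign-flip test, p = 0.3125, n = 6 stages). With 60 hpf at 0 the smallest p that test can give is 0.0625, so it could not pass 0.05 in any case.

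Along the MG stages *gfap* did not follow a steady course. Ordered by level, 96 hpf MG (17.3 CPM) was followed by 192 hpf (10.2), 48 hpf replicates 1 and 2 (4.65), 72 hpf (2.31), and 120 hpf (0.731). Each neighbour in this order differed beyond its counting interval, with ratios of 0.587 for 192 over 96 hpf (0.376 to 0.918), 2.18 for 192 over 48 hpf (1.38 to 3.49), 0.497 for 72 over 48 hpf (0.274 to 0.878), and 0.316 for 120 over 72 hpf (0.0929 to 0.867). By limma over columns, 192 against 96 hpf (-0.77, adjusted p = 0.538) and 72 against 48 hpf (-0.46, adjusted p = 0.544) did not pass, while 192 against 48 hpf (1.66, adjusted p = 0.0347) and 120 against 72 hpf (-1.61, adjusted p = 0.0342) passed narrowly. The first of these contrasts called 3.70% of all genes lower at 192 hpf, and the others called 56.6%, 38.4%, and 46.8% in either direction. The ratios used 48 hpf replicates 1 and 2, but the limma fits also kept replicate 3, which by the chi-square ratio repeats 72 hpf MG. The fit of 72 against 48 hpf thus partly compared 1 library with itself. Without both 48 hpf replicates 3, limma gave -0.999 for 72 against 48 hpf (adjusted p = 0.156). For 192 against 48 hpf it gave 1.12 (adjusted p = 0.141), so neither passed.

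Between neighbouring MG stages from 72 hpf on, all 3 steps passed. *gfap* was higher at 96 than at 72 hpf by a ratio of 7.49 (4.31 to 13.4, limma 2.88, adjusted p = 0.000249), lower at 120 than at 96 hpf by a ratio of 0.0423 (0.0131 to 0.107, limma -4.49, adjusted p = 4.14e-07), and higher at 192 than at 120 hpf by a ratio of 13.9 (5.53 to 44.9, limma 3.72, adjusted p = 7.10e-06). These steps called 60.9%, 67.3%, and 68.5% of all genes. They run between libraries of 72 and 120 hpf and libraries of other stages, the same divide as in the TMM factors above, so the stage and the kind of library cannot be told apart. With TMM scaling, and 48 hpf replicate 3 kept, the order of 48 and 72 hpf turned in limma (0.10, adjusted p = 0.891).

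In C the course was another. The level was highest at 48 hpf (6.47 CPM), followed by 120 hpf (2.48), 96 hpf (1.44), 192 hpf (0.237), 72 hpf (0.170), and 60 hpf (0.148). The ratio was 0.383 for 120 over 48 hpf (0.125 to 1.15) and 1.72 for 120 over 96 hpf (0.585 to 4.78), so these neighbours did not differ beyond counting error. It was 0.164 for 192 over 96 hpf (0.00823 to 0.949), and the 3 lowest libraries, with 0 to 2 reads a column, could not be set apart.

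Between neighbouring stages of C, limma gave -4.95 for 60 against 48 hpf (adjusted p = 4.30e-07), 0.15 for 72 against 60 hpf (0.859), 3.02 for 96 against 72 hpf (0.000169), 0.86 for 120 against 96 hpf (0.249), and -3.16 for 192 against 120 hpf (9.80e-05). They called 30.5%, 56.7%, 58.2%, 54.5%, and 55.8% of all genes. The step at 120 hpf passed with TMM scaling (1.73, adjusted p = 0.0157). The *gfap* level of 48 hpf C was lower than that of 96 hpf MG, which was 2.68 times as high (1.26 to 6.41). In bulk samples such as these, fewer cells of a type and less RNA per cell cannot be told apart.

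Other genes of Müller glia were mostly higher in MG where they were called, with exceptions at 60, 72, and 120 hpf. Of a list of 12 such genes, 7 had an identifier and were tested. In the order of the stages from 48 to 192 hpf, 2, 2, 4, 5, 3, and 5 were higher in MG, and 0, 1, 1, 0, 2, and 0 were lower. The shares of all genes called higher were 4.36%, 6.17%, 23.3%, 6.59%, 20.0%, and 6.12%. Those called lower were 9.61%, 70.7%, 23.4%, 29.3%, 37.4%, and 20.5%. The list's median log2 difference was 0.12, 1.27, 1.82, 2.73, 1.0, and 1.97, beside medians over all genes of -0.46, -3.55, 0.00, -0.78, -0.56, and -0.39. With TMM scaling the counts at 120 hpf were also 3 higher and 2 lower. Without both 48 hpf columns of replicate 3, 4, 5, 4, 5, 4, and 6 were higher in MG, and 0, 1, 2, 0, 2, and 1 were lower. The shares of all genes are those of the fit with all columns on the deposited scale. Shares for the other fits are not given here, so counts from those fits, for this list and those below, have no share beside them.

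At 120 hpf *rlbp1a*, the gene of the retinaldehyde-binding protein CRALBP of the visual cycle, had 32.2 CPM in MG against 0.754 CPM in C (log2 difference 5.47, adjusted p under 0.05 in limma). *aqp4*, a water channel of glial endfeet, had 21.0 CPM in MG against 0.0269 CPM in C (8.24, a fitted value against less than 1 read a column), and *apoeb*, an apolipoprotein secreted by glia, had 39.3 CPM in MG against 14.7 CPM in C (1.42). These 3 passed as higher. *glula*, the glutamine synthetase that clears glutamate, had 3161 CPM in MG against 1585 CPM in C and did not pass (1.0). Its spread in the fit holds 48 hpf MG, where *glula* had 94.7 CPM in replicates 1 and 2 and 2477 CPM in replicate 3. The missing call therefore does not show equal levels.

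The 2 list genes called lower in MG at 120 hpf were *fabp7a*, a fatty acid-binding protein of radial glia, with 9.56 CPM in MG against 86.2 CPM in C (-3.17), and *cahz*, a carbonic anhydrase, with 3.75 CPM in MG against 17.9 CPM in C (-2.24). At 96 hpf *fabp7a* had been higher in MG (7560 against 1142 CPM, 2.73), as were *rlbp1a* (1174 against 7.34 CPM, 7.32) and *glula* (6311 against 1098 CPM, 2.52). *vim*, the filament partner of GFAP, stayed between 0.59 and 18.1 CPM in all libraries, and it passed the test only at 72 hpf, where it was lower in MG (-2.22). At 48 hpf *rlbp1a* (2.20) and *aqp4* (3.80) were called higher in MG, but their CPM in MG replicates 1 and 2 were 4.08 and 0.191, against 37.001 and 6.48 in MG replicate 3.

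**Figure D3:**
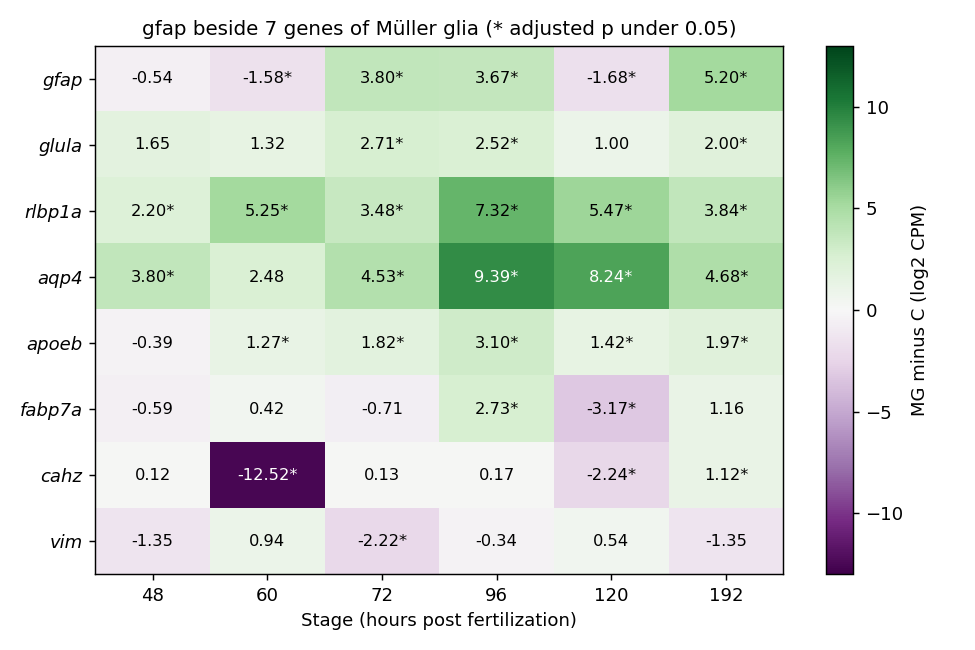
log2 CPM difference of MG minus C (limma over columns, color and printed value) for *gfap* and 7 genes of Müller glia by stage, with a star where the adjusted p was under 0.05. *gfap* had -1.68 at 120 hpf, where *rlbp1a* had 5.47 and *aqp4* 8.24; the 60 hpf column rests on the shallow MG library.

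Relative to *glula* in the same library, a measure free of any scaling that was added after the values were seen, *gfap* had 49.2 reads per 1000 *glula* reads in 48 hpf MG replicates 1 and 2 and 71.4 in C. The values were 0.925 in MG and 0.445 in C at 72 hpf, 2.74 and 1.31 at 96 hpf, 0.231 and 1.56 at 120 hpf, and 1.20 and 0.113 at 192 hpf, MG before C each time. The MG over C ratio on this scale was 0.688 at 48 hpf (0.321 to 1.66), 2.08 at 72 hpf (0.2497 to 425), 2.09 at 96 hpf (1.05 to 4.55), 0.148 at 120 hpf (0.0378 to 0.522), and 10.7 at 192 hpf (2.20 to 198), with intervals that cover the counting error of *gfap* alone. The divisor differed between the fractions, as the *glula* levels of 96 and 120 hpf above show, so the ratio holds the *glula* difference too.

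Of 23 intermediate filament and linker genes listed, 18 had an identifier and 14 were tested. In MG, 0, 1, 2, 2, 3, and 1 were higher and 2, 9, 3, 5, 6, and 4 were lower from 48 to 192 hpf, and the list's median log2 difference was -0.87, -3.57, 0.14, -0.48, 0.50, and -0.85. Beside the lower counts of 2, 9, 3, 5, 6, and 4 among 14 stand 9.61%, 70.7%, 23.4%, 29.3%, 37.4%, and 20.5% of all genes, and beside the list medians those over all genes given above. Beside the higher counts stand the higher shares given with the Müller glia list. With TMM scaling the median at 96 hpf was 0.03, and at 120 hpf 4 were higher and 3 lower. Without both 48 hpf replicates 3 the median at 48 hpf was -0.67, beside -0.33 over all genes. *prph* and *lmnb1* were listed at 0 in all columns.

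Of the members, *inaa* and *synm* also stood highest in MG at 96 and 192 hpf. *inaa*, the fish gene named for alpha-internexin, which is a neuronal filament in mammals, had 312 CPM in MG against 10.9 CPM in C at 96 hpf (4.84, adjusted p under 0.05) and 377 CPM in MG against 47.2 CPM in C at 192 hpf (3.0, not passed). In MG of 72 and 120 hpf it had 2.47 and 4.56 CPM. *synm*, synemin, which binds GFAP and vimentin filaments, had 84.8 CPM in MG against 13.1 CPM in C at 96 hpf (2.69), 120 CPM in MG against 31.2 CPM in C at 192 hpf (1.95), and 1.67 CPM in MG against 0.341 CPM in C at 72 hpf (2.88), and passed at all 3. At 120 hpf it had 21.2 CPM in MG against 15.4 CPM in C (0.46).

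Other members went their own way. *nes*, nestin, a filament gene of neural progenitors, had 27.4 CPM in MG against 26.2 CPM in C at 48 hpf (replicates 1 and 2) and 2.93 CPM or less in MG at the later stages. *pleca*, a plectin that links filaments, was higher in MG at 72 and 120 hpf (2.64 and 2.15) and lower at 48 and 192 hpf (-0.95 and -2.01). *plecb* was lower in MG at 96, 120, and 192 hpf (-4.00, -3.25, and -4.85). The nuclear lamin *lmna* was lower in MG at 120 hpf, with 0.0975 CPM in MG against 7.97 CPM in C. The log2 difference was -3.04 with MG set to 0.969 CPM, which is 3 reads of the shallower C library. The lamin *lmnl3* stayed at 2.81 CPM or less in all libraries, mostly under 3 reads a column. *lmnb2* had 3883 and 2145 CPM in MG and 4576 and 4857 CPM in C at 72 and 120 hpf, and no more than 717 CPM in either fraction at the other stages without the 48 hpf replicates 3.

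The remaining filament members were low. *desmb*, desmin, a muscle filament, reached 27.6 CPM in 72 hpf C. The neurofilament genes *nefla*, *nefma*, and *nefmb* stayed at 2.11 CPM or less in all libraries, and *nefmb* was called higher in MG at 120 hpf on 0.146 CPM in MG and 0 in C. *sync*, which binds desmin, stayed at 1.52 CPM or less, and the lens filament genes *bfsp1* and *bfsp2* at 4.79 CPM or less.

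Of 47 listed genes known to control GFAP in mammals, 30 had an identifier and 20 were tested. From 48 to 192 hpf, 0, 1, 3, 1, 1, and 1 were higher in MG and 5, 12, 6, 5, 12, and 3 lower, with list medians of -1.27, -2.23, -0.29, -0.32, -1.86, and -0.33. With TMM scaling the medians at 96 and 192 hpf were 0.18 and 0.06, and 10 were lower at 120 hpf. Without both 48 hpf replicates 3 the median at 48 hpf was -0.37, beside -0.33 over all genes. Beside the higher and lower counts among 20 stand the same shares of all genes as for the filament list. The lower counts of 12, 5, and 3 at 60, 96, and 192 hpf are under those shares and are no result about the list, and the 120 hpf lower count of 12 stands beside 37.4%. Listed at 0 in all columns were *cntfr*, *her15.1*, *id1*, *il6st*, *junba*, *nfixa*, *rbpja*, *smad1*, *smad9*, and *sox9a*.

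Among transcription factors, *nfia*, an NFI factor that opens GFAP to activation in mammals, had 920 CPM in MG against 110 CPM in C at 72 hpf (3.06) and 569 CPM in MG against 46.4 CPM in C at 120 hpf (3.62), the stages of the lower *gfap* levels in MG. At 96 and 192 hpf it had 98.9 and 56.6 CPM in MG and 60.8 and 67.1 CPM in C and did not pass (0.69 and -0.25). *nfic* was higher in MG at 72 hpf (3.04). *stat3*, the effector of the LIF family of cytokines, had 175 CPM in MG against 45.8 CPM in C at 120 hpf and did not pass (1.93), and at 96 hpf it had 29.6 CPM in MG against 29.8 CPM in C (0.01).

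The Hairy-related Notch targets *her4.1* and *her4.2* were lower in MG at 120 hpf (0.0902 against 5.4 CPM, -5.30, a fitted value on less than 1 read a column in MG, and 0.946 against 42.3 CPM, -5.45), and *her4.2* also at 72 hpf (-3.93). At 96 and 192 hpf neither passed. The Notch target *hey1* had a course closer to that of *gfap*, with 64.0 CPM in MG against 9.65 CPM in C at 96 hpf (2.72), 1.22 CPM in MG against 6.78 CPM in C at 120 hpf (-2.44), and 68.9 CPM in MG against 20.1 CPM in C at 192 hpf (1.78), all past the test. The receptor *notch2* was lower in MG at 120 and 192 hpf (-2.81 and -4.14). The receptor *notch3* was lower in MG at 120 hpf (2.46 against 28.5 CPM, -3.53) and did not pass at 96 or 192 hpf (1.29 and 0.42). The SMAD gene *smad5*, a transducer of BMP signals, was higher in MG at 72 hpf (0.95) and lower at 96, 120, and 192 hpf (-1.13, -3.93, and -1.50).

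Genes of other cell types moved with the same libraries. Of 9 genes of rods and cones, 8 had an identifier, 7 were tested, and *pde6c* was listed at 0. In the order of the stages, 0, 6, 4, 6, 1, and 4 were higher in MG, and 0, 1, 1, 1, 1, and 0 were lower. These counts, and those of the cell-type lists below, stand beside the shares of all genes given with the Müller glia list. Without both 48 hpf columns of replicate 3, 1, 6, 6, 6, 3, and 7 were higher and 4, 1, 1, 1, 3, and 0 lower. In that fit more members of all lists together were called, in both directions at every stage. Its counts therefore cannot be set beside those shares. The cone opsin gene *opn1mw1* alone had 166058 CPM in MG against 2537 CPM in C at 96 hpf (6.03), and *gnat2*, the cone transducin gene, 7691 CPM in MG against 189 CPM in C (5.34). The summed level of the list was 4039 CPM in MG against 454 CPM in C at 72 hpf, 242739 CPM in MG against 13402 CPM in C at 96 hpf, 2017 CPM in MG against 2669 CPM in C at 120 hpf, and 135975 CPM in MG against 22726 CPM in C at 192 hpf. Their sum thus stood higher in MG at the 3 stages at which *gfap* did. It was also higher in MG at 60 hpf (26179 against 2003 CPM), where the *gfap* level in MG is unknown. Their part in the *gfap* difference was not tested.

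Genes of pigment cells were the reverse. Of 6 listed, 5 had an identifier and 4 were tested, with *pmela* listed at 0. They summed to 179 CPM in MG against 17.7 CPM in C at 120 hpf, where 3 were higher in MG, and to 17.6 and 69.2 CPM in MG, against 99.3 and 2500 CPM in C, at 96 and 192 hpf, where 3 were lower at each stage. Most of the 120 hpf sum was *rpe65a*, the isomerase of the pigment epithelium, with 149 CPM in MG against 12.1 CPM in C. Their part was not tested either.

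Genes of the lens and the surface epithelium summed to 155, 112, and 310 CPM in MG and to 3519, 379, and 41654 CPM in C at 96, 120, and 192 hpf, with the keratin genes *krt4*, *krt5*, and *krt8* making up nearly all of the C sums at 96 and 192 hpf. The lens channel gene *mipa* ran the other way, with 63.5 CPM in MG against 1.70 CPM in C at 72 hpf (5.25), 100.4 CPM in MG against 5.41 CPM in C at 96 hpf (4.22), and 140 CPM in MG against 3.05 CPM in C at 192 hpf (5.53), all called higher in MG. At 120 hpf *mipa* had 13.6 CPM in MG against 25.6 CPM in C and did not pass (-0.92). The *mipa* level thus stood higher in MG at the stages at which *gfap* did, but not only there. At 48 hpf, where *gfap* was not called, *mipa* had a log2 difference of 2.19 with the floor of 3 reads and both replicates 3 kept. There 1 of the 4 list genes was called higher in MG and 0 lower, with a list median of -2.69. Without both replicates 3, 3 were higher and 0 lower, with a median of 1.08, beside -0.33 over all genes. The shares called in that fit are not given here. The part of *mipa* in the *gfap* difference was not tested. Of the 4 list genes tested, 1 was higher and 3 were lower in MG at 72, 96, and 192 hpf, and *cryaa* was listed at 0. For bipolar cells the sums were 105, 37.05, and 203 CPM in MG and 3017, 91.4, and 795 CPM in C at 96, 120, and 192 hpf. Of the other lists, ganglion cells had 3 of 5 tested genes higher in MG at 192 hpf, and the lists for amacrine and horizontal cells, progenitors (*pcna* and *mki67* listed at 0), the oligodendrocyte lineage, microglia, and vessels had at most 1 higher in MG at any stage. Of the optic stalk and nerve list 1 of 2 genes, *cyp24a1*, was tested, and it was not higher in MG at any stage.

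The genes whose levels were most like those of *gfap* were found by Pearson's r over the 14 joined libraries on the log2 scale, among 19045 other genes, as a description. The libraries share a composition by stage, and the 60 hpf MG library enters at its floor of 38.0 CPM, above every level of *gfap*. A gene under the floor of 3 reads follows depth. That floor was 2.28 CPM in 48 hpf C and 1.23 CPM in 96 hpf MG, where *gfap* was also high. *nefmb*, with a floored MG minus C of 0 at every stage, still had r = 0.71 (place 500 of 19045). A high r of a gene near the floor is therefore no result about its expression. The 10 highest were *gpr37l1* (r = 0.87), *enpep*, *tal2*, *zbtb42*, *si:rp71-17i16.7*, *stk38*, *rnf182*, *hist1h2a3*, *sox19b*, and *plcxd2* (r = 0.84). Without 60 hpf MG, 5 of the 10 stayed, with *si:rp71-17i16.7* (0.84) and *tal2* (0.84) at the top and *gpr37l1* at 0.80, and without both 60 hpf libraries 3 stayed. Over the 12 libraries without both 48 hpf replicates 3, *stk38* (0.89) and *tal2* (0.88) were at the top and *gpr37l1* had 0.88.

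*gpr37l1*, a receptor of astrocytes in mammals, had 10.3 CPM in MG against 0.556 CPM in C at 96 hpf and 6.34 CPM in MG against 0.118 CPM in C at 192 hpf, and no more than 0.635 CPM in any other library. *plcxd2*, a phospholipase domain gene, had 16.4 CPM in MG against 1.24 CPM in C at 96 hpf, 14.8 CPM in MG against 0.944 CPM in C at 192 hpf, and 0.215 CPM in MG and 0 in C at 120 hpf. *rnf182*, which encodes a RING finger protein, had 22.8 CPM in MG against 0.0225 CPM in C at 96 hpf and 14.9 CPM in MG against 0.592 CPM in C at 192 hpf. These 3 lacked the *gfap* level of the 48 hpf libraries, where *rnf182* was at 0 in MG replicates 1 and 2 and in all C columns.

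*tal2* and *sox19b* held to the 48 hpf level as well. *tal2*, a transcription factor of GABAergic neurons, had 12.4 CPM in MG replicates 1 and 2 and 24.3 CPM in C replicates 1 and 2 at 48 hpf, 17.7 CPM in MG against 2.21 CPM in C at 96 hpf, and 36.6 CPM in MG against 3.31 CPM in C at 192 hpf. *sox19b*, a SoxB1 factor of neural progenitors, had 2.10 CPM in MG against 6.09 CPM in C at 48 hpf, 6.68 CPM in MG against 2.05 CPM in C at 96 hpf, 0.585 CPM in MG against 2.69 CPM in C at 120 hpf, and 5.70 CPM in MG against 1.86 CPM in C at 192 hpf. Among the list genes, r over the 13 libraries without 60 hpf MG was highest for *rx1* (0.71, place 45 of 19045), *hey1* (0.63), *plp1b* (0.59), and *notch3* (0.55). It was 0.49 for *aqp4*, 0.48 for *fabp7a*, 0.42 for *rlbp1a*, 0.19 for *vim*, and 0.14 for *glula*. *plp1b* had a floored MG minus C of 0 at every stage but 192 hpf (1.37), so its r may follow the floors.

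**Figure D4:**
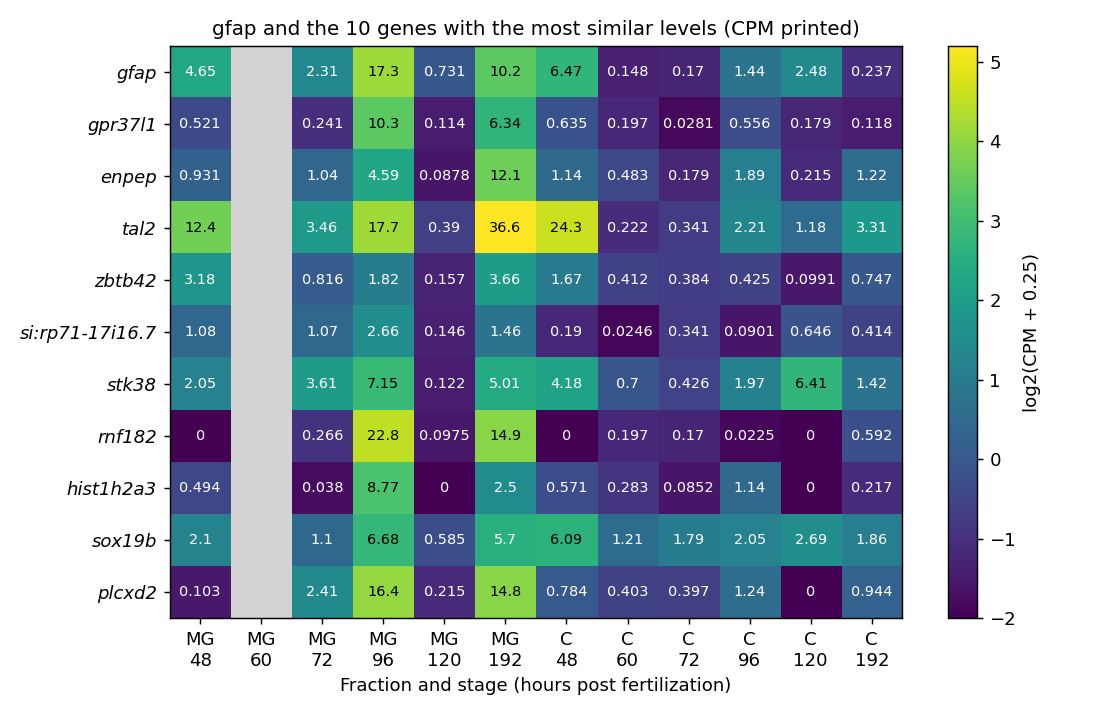
CPM (printed) of *gfap* and the 10 genes most like it in the joined libraries, MG left of C and each by stage, colored by log2(CPM + 0.25); at 48 hpf replicates 1 and 2 are shown, and 60 hpf MG is grey because it allows 38.0 CPM at 0 reads. Most rows are bright in 96 and 192 hpf MG and dark in 120 hpf MG, and *gfap*, *tal2*, and *sox19b* are also bright in 48 hpf C.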

How the data were processed

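The deposited values are log2 CPM, made by the authors with a prior of 0.25 read scaled to each library, for 31540 Ensembl genes in 36 columns (0 columns could not be mapped). Reads were aligned with HISAT2 and counted with featureCounts by the authors. The submitters' processing notes name GRCz10 and the methods Zv9, so no coordinates or sequences are printed, and the strand setting of the counting is not given in the sources used here. Both fractions were amplified before sequencing.

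Reads were recovered from the deposited log2 values in multiples of 0.01 read. Columns of a group were joined where the median chi-square of their reads (over genes holding 20 or more reads in both together) was at most 1.1 times that expected, which gave 14 libraries. In 60 hpf MG, replicates 2 and 3 had a ratio of 1.35 and were joined through replicate 1. Library CPM are summed reads over summed depth, and intervals (95%, exact Poisson or Clopper-Pearson on the mean reads of a column, which need not be whole) cover counting error only. The floor is 3 reads, taken of the shallowest library of the stage for MG minus C and of each library for Pearson's r. The paper describes 3 experimental replicates per time point, with little difference between them. GEO's labels do not say that columns came from separate sorts, so p-values measure only the spread between columns. limma 3.58.1 in R 4.3.3 (12 group means, trended eBayes) was fitted to genes that reached 1 CPM in 3 columns or more, with calls at an adjusted p under 0.05. Other steps used Python 3.11.15, numpy 2.4.6, pandas 2.3.3, scipy 1.17.1, and matplotlib 3.10.9. The limma fit, the column ratio, and the TMM factors were tested on simulated data, and the remaining steps were not. Symbols came from a reference names table (26073 identifiers) and supplementary tables (4040), and 101 of 138 list entries matched.

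Named are *gfap*, the 10 most similar genes with a symbol, and the filament genes. Of each other list the plan was to name its defining markers and then up to 4 genes with the largest mean MG minus C. Markers of ganglion, amacrine and horizontal, bipolar, microglia, and vessel cells are not named singly, and these lists are given as counts or sums. The measure per *glula* read and the genes *nfic*, *hey1*, *notch3*, *smad5*, and *stat3* were picked once values had been seen. The gene and the lists were chosen with earlier results of these data known. Alternatives were other filters, a pseudocount of 1 CPM, TMM and quantile scaling, eBayes without a trend, a replicate block, fits on the groups compared, and leaving out columns or stages. GFP reads and the mutant libraries were not analysed here.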

Additional observations from a re-analysis of the deposited data

Results flagged for a closer look

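The MG minus C difference of *gfap* varied between the libraries of the stages. Its F-test across the 6 stages in limma had an adjusted p of 1.33e-08, and the difference was past the threshold in opposite directions at 120 hpf (-1.68) and at 72, 96, and 192 hpf (3.80, 3.67, and 5.20). The test compares libraries, 85.3% of all genes passed it, and the value at 120 hpf is not called under TMM or quantile scaling.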

How the results depend on the processing

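The calls at 72, 96, and 192 hpf kept their direction and their side of the threshold under every alternative run on them, and the F-test across stages passed throughout. Their leave-one-out ranges were 2.94 to 4.24, 3.21 to 3.92, and 5.08 to 5.45. The columns of each of these groups sample 1 library, so leaving out 1 of them cannot test a difference between conditions. TMM scaling moved the median MG minus C of all genes to 0.11, -3.62, -0.06, -0.28, -0.13, and -0.01 from 48 to 192 hpf. On the limma scale, *gfap* MG minus C at 48 hpf turned to 0.026 with TMM scaling and 0.18 with quantile normalization, neither past the threshold. At 60 hpf it lost its call with log2(CPM + 1) (-0.19, adjusted p = 0.551), quantile normalization (-0.32, adjusted p = 0.613), the fit on the groups compared (-1.58, adjusted p = 0.131), and single columns left out (-2.36 to -0.98). At 120 hpf it lost it with TMM scaling (-1.25) and quantile normalization (-0.28), and single columns left out gave -1.85 to -1.44.

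Between MG stages, 192 against 96 hpf gained a call with quantile normalization (-1.80) and in the fit on the groups compared (-0.77). 192 against 48 hpf lost it with TMM scaling (1.41), quantile normalization (0.87), without both 48 hpf replicates 3 (1.12), in the fit on the groups compared (1.66), and with single columns left out (1.12 to 1.94). 72 against 48 hpf turned to 0.10 with TMM scaling and 0.22 with quantile normalization. 120 against 72 hpf lost its call with TMM scaling (-1.39) and quantile normalization (-0.74), and had -1.73 to -1.48 with single columns left out. In C, 120 against 96 hpf gained a call with TMM scaling (1.73) and quantile normalization (2.03), and 72 against 60 hpf ran between -0.64 and 1.01 with single columns left out.

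In the joined libraries, a floor of 10 reads set the log2 ratio to 0 at 72 hpf, 2.08 at 96 hpf, and 2.14 at 192 hpf, by construction, log2(CPM + 1) gave -0.20 at 60 hpf, and reads per *glula* read gave 1.06 at 96 hpf. The mean over stages ran from 0.70 to 1.75, with exact p of 0.1875 to 0.625. Of the 10 genes most like *gfap*, 4 stayed with Spearman's rho, 5 without 60 hpf MG, and 3 without both 60 hpf libraries, an alternative added after seeing the data. Of 81 list members tested, 4 were higher and 12 lower in MG at 48 hpf, against 11 and 5 with TMM scaling and 12 and 24 without both 48 hpf replicates 3, which also gave 28 higher and 34 lower at 192 hpf, where 18 and 21 had been called. Each group has its own mean in the fit, so the differences at 192 hpf are the same with and without these columns. Only the spread of each gene, shared by all groups, and the p-values from it change there. With a replicate block no call on *gfap* changed (120 hpf -1.68, adjusted p = 0.0235, F = 24.7). Whether the numbers pair MG with C could not be decided, since outside 48 hpf the columns of a group differ by little but read noise. Of 18 same-numbered pairs, 0 deviated together at a correlation over 0.1, and 9 correlated best with their own number. Depth limits every value under 3 reads, above all 60 hpf MG.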
